A study of Mus musculus with 3 samples.

Results

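Glycolysis and the response to low oxygen were followed through 34 named genes in cultured mouse mammary tumour cells. The genes were chosen by name, with earlier results of these data known. They comprise 16 glycolytic enzymes and transporters and 18 targets of hypoxia-inducible factor (HIF). All 34 were found among the 20605 genes of the deposited table, and all 34 passed the filter on low counts that left 13184 genes to test.

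The tumour cells came from the mammary tumours of 4 C3(1)-Tag mice on the FVB strain, which carry a transgene for a viral large T antigen, and all groups share that transgene. The labels give an age of 25 to 30 weeks and a primary tumour of 20 mm, freshly isolated. Cells of each mouse were embedded in gels of collagen I, the main fibre of connective tissue, or of Matrigel, a basement membrane extract, in serum-free DMEM/F12 with ITS and 2.5 nM FGF2. They were taken 12 hours after plating (day 0) and on days 3 and 5, when collagen gels were opened with collagenase for 10 minutes and Matrigel with EDTA on ice for 30 minutes. Matrix and release method therefore cannot be told apart. Cells of 4T1, an established mouse mammary carcinoma line grown on plastic in RPMI with serum, were added to every pool. Each day was 1 pool, 1 library and 1 labelled batch, so that day and pool cannot be told apart either.

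The 3 pools held 7620 cells, of which 6970 were kept as tumour cells, with 60391888, 140869562 and 68725854 unique molecular identifiers (UMIs, counted RNA molecules) on days 0, 3 and 5. Pools shared 11 cell barcodes. UMIs were summed per mouse, matrix and day, which gave 4 mice per matrix on days 0 and 3, and 3 in collagen and 2 in Matrigel on day 5. Mouse 4 had no cells on day 5, and mouse 1 had too few in Matrigel. The 7 epithelial markers summed to 3744 to 7656 CPM (counts scaled to a common library size) over the 21 sums, with no marker at 0. On day 0 they summed to 4071 to 6086 CPM in collagen and 6087 to 7656 CPM in Matrigel, without overlap, and their part in the day 0 differences between matrices was not tested. On day 0 the kept cells included 257 of 939 collagen and 260 of 1701 Matrigel cells from 2 clusters of few UMIs, and 26 collagen and 16 Matrigel cells that clustered with 4T1 cells. In sums over cells, fewer expressing cells and less RNA per cell cannot be told apart.

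Glycolysis converts glucose to pyruvate, which lactate dehydrogenase reduces to lactate when it is not oxidised in mitochondria, and the lactate leaves the cell through monocarboxylate transporters. HIF is a transcription factor whose alpha subunit is hydroxylated by oxygen-dependent prolyl hydroxylases and then degraded. When oxygen is short the subunit persists, binds a short DNA element and raises transcription of most glycolytic enzymes and of genes for angiogenesis, mitophagy, pH control and collagen hydroxylation.

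The promoters of 4 members are shown because these genes had called differences between the matrices without a mouse term. Each run is the 250 bases before the transcription start in RefSeq, build GRCm38.p6, written 5′ to 3′ on the gene's strand. Capitals mark the core of the HIF element, searched as ACGTG or GCGTG on both strands, so CACGT and CACGC are the same letters on the other strand. A CACGTG holds the core on both strands and counts as 2 matches.
Bnip3, chr7:138909507-138909756, minus strand: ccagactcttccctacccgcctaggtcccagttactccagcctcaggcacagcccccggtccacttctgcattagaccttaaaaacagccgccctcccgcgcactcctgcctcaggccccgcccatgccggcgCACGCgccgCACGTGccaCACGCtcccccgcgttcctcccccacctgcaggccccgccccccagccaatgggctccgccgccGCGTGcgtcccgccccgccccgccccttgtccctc
Pdk1, chr2:71872974-71873223, plus strand: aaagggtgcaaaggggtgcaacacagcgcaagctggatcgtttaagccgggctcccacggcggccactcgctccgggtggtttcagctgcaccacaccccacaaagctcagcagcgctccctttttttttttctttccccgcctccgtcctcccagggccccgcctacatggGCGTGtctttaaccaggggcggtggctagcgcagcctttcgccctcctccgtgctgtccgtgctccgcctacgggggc
Slc16a3, chr11:120948817-120949066, plus strand: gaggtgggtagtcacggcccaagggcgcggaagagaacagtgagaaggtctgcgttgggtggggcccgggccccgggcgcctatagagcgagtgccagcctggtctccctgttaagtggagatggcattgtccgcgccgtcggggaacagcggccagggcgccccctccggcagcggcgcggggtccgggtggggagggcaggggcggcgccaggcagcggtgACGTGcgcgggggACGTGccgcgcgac
P4ha1, chr10:59323046-59323295, plus strand: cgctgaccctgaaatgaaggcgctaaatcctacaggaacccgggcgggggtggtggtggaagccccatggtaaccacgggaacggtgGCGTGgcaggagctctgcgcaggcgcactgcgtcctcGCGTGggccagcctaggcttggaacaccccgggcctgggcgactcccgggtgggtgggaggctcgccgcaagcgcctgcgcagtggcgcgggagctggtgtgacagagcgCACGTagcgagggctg
Bnip3 had 5 matches, P4ha1 had 3, Slc16a3 had 2 and Pdk1 had 1. Of 31 members with a promoter entry, 24 (77.4%) held at least 1 match in the first entry of the gene. Aldoa, Pkm, Hk1 and Vegfa had 0 matches in that entry and at least 1 in a later entry. The same search matched 38.6% of the promoters of all 27025 genes and 57.0% of those of the 10039 tested genes with an entry. A match describes the letters and does not show that HIF binds there.

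The lactate exporter Slc16a3 (monocarboxylate transporter MCT4) was higher in collagen than in Matrigel on every day. On day 0 its level was 54.8, 21.1, 78.9 and 20.4 CPM in collagen in mice 1 to 4 and 16.3, 12.7, 17.5 and 9.48 CPM in Matrigel. On day 3 the levels were 153, 60.6, 58.0 and 60.3 CPM in collagen and 16.9, 20.9, 14.04 and 8.68 CPM in Matrigel. On day 5 collagen cells of mice 1 to 3 had 243, 66.9 and 96.3 CPM, and Matrigel cells of mice 2 and 3 had 32.3 and 21.2 CPM. The groups did not overlap on any day, and mouse 1 was the highest in collagen on days 3 and 5. The log2 difference was 1.65 ± 0.48 (standard error) on day 0 (edgeR adjusted p = 0.0428), 2.49 ± 0.50 on day 3 (p adjusted 0.0391) and 2.32 ± 0.66 on day 5 (p adjusted 0.117). With the mouse as a block the day 5 difference was 1.83 ± 0.48 and passed (edgeR adjusted p = 0.0324), but not when the 13 day 5 Matrigel cells of mouse 1 were added (1.32, adjusted p = 0.067). Leaving out each mouse in turn kept the day 0 difference of Slc16a3 between 1.35 and 1.84 and that of day 3 between 2.07 and 2.86, with adjusted p from 0.0626 to 0.217 and from 0.0715 to 0.379. The calls of both days also ended in a fit of the compared groups alone (adjusted p = 0.0634 and 0.095) and with sums of at least 10 cells (0.0733 and 0.0769), and that of day 0 without a filter on low counts (0.0513).

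Cells of the 4T1 line had 0, 1.17 and 1.13 CPM of Slc16a3 in the 3 pools, or 0, 16 and 3 UMIs. Its level was 124 CPM in the macrophage-like cluster and 108 CPM in the fibroblast-like cluster, which had been left out. Summed fibroblast markers were higher in collagen than in Matrigel on day 3 (9.33 to 22.7 against 2.34 to 5.75 CPM, 0 of 6 markers at 0) and on day 5 (13.6 to 29.9 against 4.82 to 5.85 CPM), and overlapped on day 0 (7.14 to 11.5 against 3.39 to 16.7 CPM). In the fibroblast-like cluster itself they summed to 5080 CPM. Summed macrophage markers were 47.7 to 59.3 CPM in collagen and 47.0 to 74.6 CPM in Matrigel on day 0, 59.4 to 89.1 and 47.3 to 122 CPM on day 3, and 53.8 to 74.8 and 54.5 to 341 CPM on day 5. In the macrophage-like cluster they summed to 12476 CPM. The part of such cells in the differences was not tested. With the stromal and immune clusters added back, the day 0 and day 3 differences of Slc16a3 were 1.38 and 2.20, and neither passed (adjusted p = 0.104 and 0.103).

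On day 0, 3 of 34 members were higher in collagen and 0 lower, against 4.15% of all 13184 genes higher and 2.88% lower. Beside Slc16a3 these were Bnip3, a mitophagy receptor of the outer mitochondrial membrane, and Pdk1, a kinase that inactivates pyruvate dehydrogenase in mitochondria. Bnip3 stood at 18.9, 14.3, 22.9 and 45.9 CPM in collagen in mice 1 to 4 and at 5.24, 3.45, 7.33 and 11.8 CPM in Matrigel. Pdk1 stood at 5.91, 8.46, 8.44 and 12.8 CPM in collagen and at 2.73, 2.07, 3.03 and 4.17 CPM in Matrigel. Every collagen value lay above every Matrigel value for both genes, and mouse 4 was the highest in each matrix. The log2 differences were 1.85 ± 0.45 for Bnip3 (edgeR adjusted p = 0.019) and 1.54 ± 0.39 for Pdk1 (adjusted p = 0.0237). Without the clusters of few UMIs, in which Bnip3 was at 56.2 and Pdk1 at 25.9 CPM, the differences were 1.51 and 1.44 and still passed (adjusted p = 0.0331 and 0.026). Without the cells of the 4T1 cluster Bnip3 passed (1.88, adjusted p = 0.0496) and Pdk1 did not (1.45, adjusted p = 0.0538). Leaving out mouse 1, 2 or 3 ended the call of Bnip3 (adjusted p = 0.083, 0.0596 and 0.122), as did a fit of the compared groups alone (0.0535), and leaving out mouse 2, 3 or 4 that of Pdk1 (adjusted p = 0.116, 0.148 and 0.0651).

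With the mouse as a block, day 0 had 10 members higher in collagen and 1 lower, against 12.5% and 11.8% of all genes. The added genes were 5 glycolytic enzymes and 3 HIF targets, each with the same direction in all 4 mice. The liver-type phosphofructokinase Pfkl, which catalyses the committed step, had 81.7, 50.8, 65.6 and 69.0 CPM in collagen against 39.6, 29.0, 42.4 and 27.8 CPM in Matrigel. Its groups did not overlap, and its log2 difference was 0.95 ± 0.16 (edgeR with the block, adjusted p = 0.000707). The platelet-type isoform Pfkp (0.41 ± 0.14), the aldolase Aldoa (0.53 ± 0.17), the triose phosphate isomerase Tpi1 (0.53 ± 0.16) and Gapdh (0.36 ± 0.13), which oxidises glyceraldehyde 3-phosphate, were also higher. Among HIF targets the collagen prolyl 4-hydroxylase subunit P4ha1 (0.52 ± 0.17) and the cytokine Mif (0.64 ± 0.15) were higher, and the histone demethylase Kdm3a was lower (-0.42 ± 0.15). Of these, Aldoa, Gapdh, P4ha1 and Kdm3a missed the threshold with the block when the cells of the 4T1 cluster were left out (log2 differences 0.26, 0.32, 0.35 and -0.42), and Pfkp without the clusters of few UMIs (adjusted p = 0.0691). Over the 16 glycolytic genes the median log2 difference on day 0 was 0.34, with 15 above 0, and over the 18 HIF targets it was 0.12, with 12 above 0. The median of all 13184 tested genes was 0.01, with 6677 above 0.

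On day 3 the members higher in collagen were Slc16a3 and P4ha1, 2 of 34, with 0 lower, against 0.167% of all genes higher and 0.0379% lower. P4ha1, a catalytic subunit of the enzyme that hydroxylates procollagen prolines, had 33.8, 25.1, 23.7 and 23.3 CPM in collagen in mice 1 to 4. In Matrigel it had 12.8, 11.9, 8.75 and 10.5 CPM. No Matrigel value reached the lowest collagen value, and the log2 difference was 1.29 ± 0.22 (edgeR adjusted p = 0.0159). Leaving out mouse 1, 2 or 3 left it at 1.22 to 1.37 without a call (adjusted p = 0.0871, 0.135 and 0.18), and the call also ended in a fit of the compared groups alone (0.0687) and with limma on mean CPM of cells (0.165). P4ha1 was at 93.5 CPM in the fibroblast-like cluster, and adding back the stromal and immune clusters left a difference of 1.18 (adjusted p = 0.0315). With the block 5 members were higher and 0 lower, against 2.71% and 1.66% of all genes, and the additions were Slc2a1, P4ha2 and Vegfa. The glucose transporter Slc2a1 differed by 0.54 ± 0.11 in log2, and P4ha2, a further catalytic subunit of the collagen hydroxylase, by 1.06 ± 0.20, both with overlapping ranges. Vegfa, the main angiogenic growth factor, had 53.7, 35.1, 44.3 and 24.2 CPM in collagen and 12.8, 23.5, 17.7 and 9.74 CPM in Matrigel. The ranges of Vegfa did not overlap, and its difference was 1.28 ± 0.26 (edgeR with the block, adjusted p = 0.0111; 1.32 with adjusted p = 0.0864 without it).

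On day 5, when only 3 and 2 mice were left, edgeR without the block called 0 of 34 members, against 0.326% of all genes higher and 0.129% lower. At an unadjusted p under 0.05 there were 5 members, against 1586 of 13184 genes, and DESeq2 called 3, against 261 of all genes. With the block 4 were higher and 1 lower, against 3.61% and 2.67% of all genes. Vegfa was at 94.0, 49.6 and 54.1 CPM in collagen in mice 1 to 3 and at 26.5 and 13.5 CPM in Matrigel in mice 2 and 3. P4ha1 was at 59.4, 29.5 and 36.0 CPM against 21.2 and 17.3 CPM, and P4ha2 at 48.3, 28.1 and 30.3 CPM against 16.6 and 12.0 CPM. All 3 genes were higher in collagen without overlap, by 1.62 ± 0.36, 0.90 ± 0.24 and 1.09 ± 0.30 in log2. The call of P4ha2 was lost without the clusters of few UMIs (1.08, adjusted p = 0.0844). Egln3, a HIF prolyl hydroxylase that HIF itself induces, went the other way, with 18.9, 6.59 and 3.99 CPM in collagen against 27.1 and 41.4 CPM in Matrigel. Its log2 difference was -2.34 ± 0.50 (edgeR with the block, adjusted p = 0.0118).

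**Figure D1:**
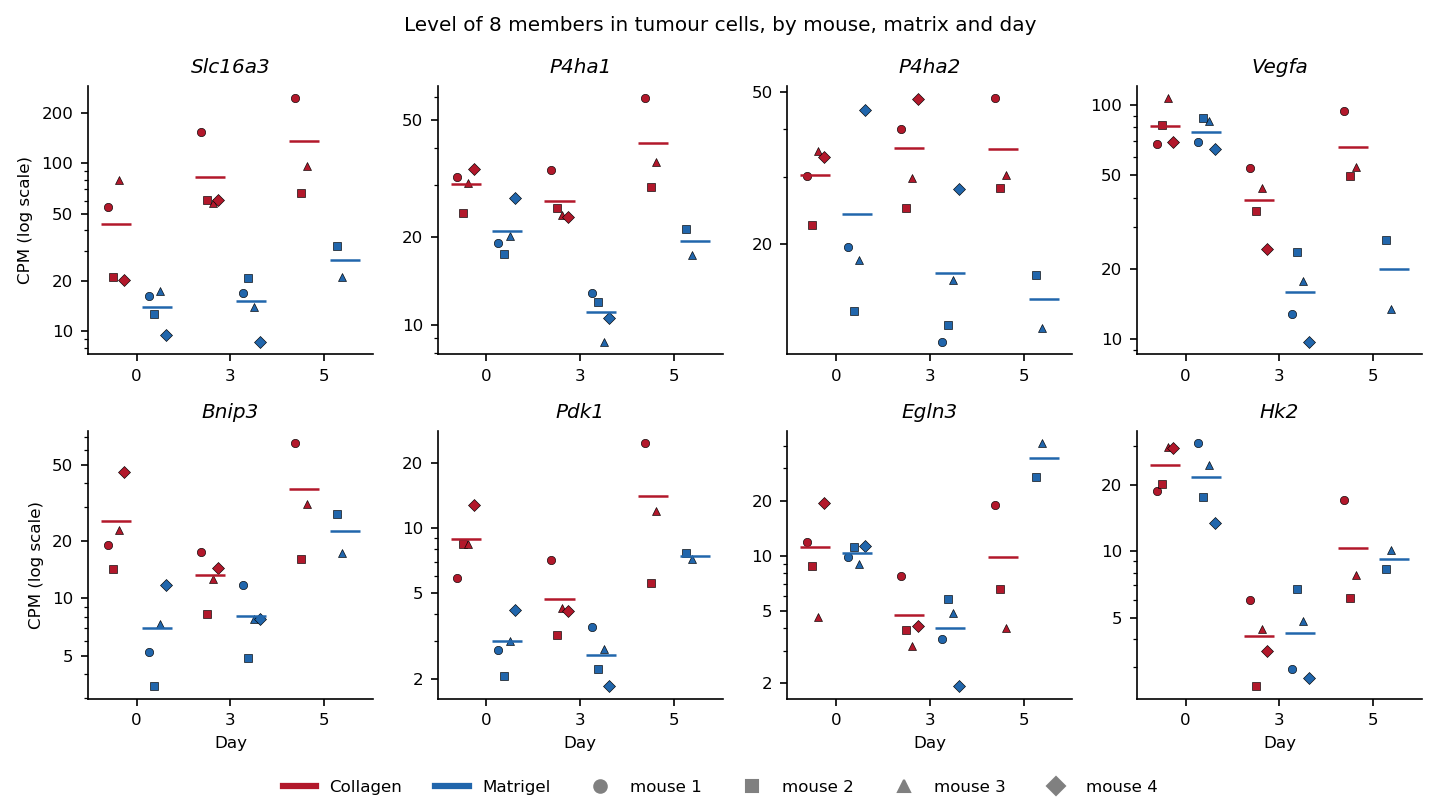
Level of 8 members in CPM (log scale) in tumour cells by day, in collagen (red) and Matrigel (blue), with 1 point per mouse (shape) and the mean as a line. Slc16a3 in collagen lies above Matrigel on each day, Vegfa overlaps on day 0 and separates on days 3 and 5, and Hk2 is lowest on day 3.

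Whether the matrix difference of a member changed with time was tested directly. Without the block edgeR called 0 of 34 members for the change from day 0 to day 3, against 0.0303% of all genes, and 0 from day 0 to day 5, against 1.19%. At an unadjusted p under 0.05 these counts were 3 and 4, against 1435 and 2120 of 13184 genes. DESeq2 called 1 for day 5, against 552 of all genes. With the block 0 members were called for day 3, against 5.34% of all genes, and 4 for day 5, against 13.7%. The difference of Vegfa grew by 1.54 ± 0.43 in log2 from day 0, when it overlapped (68.0, 82.2, 107 and 69.3 CPM in collagen, 69.1, 87.8, 85.1 and 65.0 CPM in Matrigel), to day 5 (edgeR with the block, adjusted p = 0.0261). Those of Pfkl (-0.97 ± 0.26), Bnip3 (-1.63 ± 0.51) and Egln3 (-2.34 ± 0.63) moved towards Matrigel (adjusted p = 0.0204, 0.0444 and 0.0221). The calls of Bnip3 (adjusted p = 0.105) and Egln3 (-1.64, adjusted p = 0.0874) ended without the cells of the 4T1 cluster, that of Bnip3 also without the clusters of few UMIs (adjusted p = 0.0715), and that of Vegfa when sums of at least 10 cells were used (1.22, adjusted p = 0.0618).

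Between day 0 and day 3 Hk1, Aldoc, Eno1 and Pkm rose in both matrices, while the inducible hexokinase Hk2 fell in both. In Matrigel 10 members rose and 8 fell, against 19.4% and 19.7% of all genes, and in collagen 4 rose and 4 fell, against 9.33% and 10.2%. With the block the counts were 11 and 10 in Matrigel, against 26.7% and 28.1%, and 10 and 10 in collagen, against 18.2% and 19.5%. By list, in Matrigel 8 glycolytic genes rose and 1 fell, and 2 HIF targets rose and 7 fell. In collagen 4 glycolytic genes rose and 1 fell, and 0 HIF targets rose and 3 fell. Median log2 changes were 0.58 in collagen and 0.45 in Matrigel for glycolysis and -0.36 and -0.46 for HIF targets, beside -0.02 and -0.01 for all tested genes.

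Hexokinases trap glucose in the cell as glucose 6-phosphate. Hk2, the isoform that is inducible and high in many tumours, had 18.8, 20.1, 29.7 and 29.3 CPM in collagen on day 0 and 6.03, 2.44, 4.43 and 3.55 CPM on day 3. In Matrigel it had 31.0, 17.5, 24.6 and 13.4 CPM on day 0 and 2.92, 6.71, 4.83 and 2.65 CPM on day 3. Every day 3 value lay below every day 0 value. Its log2 change was -2.56 ± 0.37 in collagen (edgeR adjusted p = 0.000114) and -2.33 ± 0.39 in Matrigel (adjusted p = 0.000132), and it passed in every alternative fit. The housekeeping isoform Hk1 moved the other way, from 30.0, 25.9, 27.8 and 25.9 to 46.0, 37.9, 53.4 and 37.5 CPM in collagen. In Matrigel Hk1 went from 35.6, 25.96, 26.9 and 27.0 to 39.1, 43.1, 50.6 and 32.6 CPM. The groups of Hk1 did not overlap in collagen and overlapped in Matrigel, and the changes were 0.67 ± 0.16 (adjusted p = 0.0064) and 0.51 ± 0.16 (adjusted p = 0.0176). The call in collagen was lost without mouse 2 (0.72, adjusted p = 0.0515) and that in Matrigel without mouse 2 or 3 (0.45 and 0.38, adjusted p = 0.128 and 0.118). Pfkfb3, which makes the activator of phosphofructokinase, fell with Hk2 in collagen (-1.50 ± 0.42) and in Matrigel (-1.52 ± 0.44), where its day 3 levels were 1.06 to 2.53 CPM. Its calls ended without mouse 2 in collagen (-1.58, adjusted p = 0.0836) and without mouse 2 or 4 in Matrigel (-1.48 and -1.29, adjusted p = 0.0628 and 0.0664).

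The enolase Eno1 and the pyruvate kinase Pkm catalyse the last steps to pyruvate. Eno1 rose from 653, 510, 518 and 742 to 1370, 968, 1101 and 1162 CPM in collagen and from 529, 443, 439 and 503 to 1022, 676, 1236 and 1133 CPM in Matrigel. Pkm rose from 1107, 1046, 1115 and 1494 to 2717, 1847, 2004 and 2279 CPM in collagen and from 1152, 926, 1107 and 1264 to 1752, 1480, 2250 and 2696 CPM in Matrigel. Day 3 lay above day 0 without overlap for both genes in both matrices. The log2 changes of Eno1 were 0.93 ± 0.18 and 1.09 ± 0.18 (edgeR adjusted p = 0.00125 and 0.000119), and those of Pkm 0.89 ± 0.18 and 0.88 ± 0.18 (adjusted p = 0.00166 and 0.000793). Both genes passed in each alternative fit. The brain-type aldolase Aldoc had the steepest rise of the list, from 5.79, 5.02, 10.1 and 6.21 to 21.1, 18.9, 13.8 and 21.6 CPM in collagen and from 3.71, 5.52, 2.79 and 5.06 to 23.9, 13.1, 19.3 and 9.61 CPM in Matrigel. Its changes were 1.48 ± 0.33 and 1.89 ± 0.33 (adjusted p = 0.00353 and 0.000218), and the first was 1.36 without mouse 2 (adjusted p = 0.0577).

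Other enzymes rose in Matrigel and, with the block, in collagen. Pfkl rose by 1.13 ± 0.29 in Matrigel (edgeR adjusted p = 0.00445) and by 0.62 ± 0.16 in collagen with the block (adjusted p = 0.00459). Tpi1 rose by 0.83 ± 0.29 and with the block by 0.72 ± 0.16, the lactate dehydrogenase subunit Ldha by 0.67 ± 0.26 and 0.54 ± 0.17, and Aldoa by 0.59 ± 0.23 and 0.53 ± 0.17. The Matrigel calls of Aldoa (adjusted p = 0.0496) and Ldha (adjusted p = 0.0487) were at the threshold, and RLE scaling ended them (adjusted p = 0.0508 and 0.0516). Leaving out mouse 1, 2 or 3 also ended both (adjusted p from 0.0553 to 0.225), and leaving out mouse 4 that of Ldha (adjusted p = 0.074). With the stromal and immune clusters the change of Aldoa was 0.37 (adjusted p = 0.216). The call of Tpi1 in Matrigel ended without mouse 1 or 2 (adjusted p = 0.13 and 0.0531). With the block, the isomerase Gpi1 rose in Matrigel (0.37 ± 0.15), Slc2a1 fell there (-0.41 ± 0.11) and Slc16a3 rose in collagen (0.91 ± 0.33, or 0.80 with adjusted p = 0.0569 without the cells of the 4T1 cluster). Gapdh, the phosphoglycerate kinase Pgk1, the mutase Pgam1 and Pfkp did not pass in either matrix, with log2 changes from -0.09 to 0.22. Gapdh, Pgk1, Tpi1, Ldha, Eno1, Pgam1 and Aldoa have processed pseudogenes or near-identical copies, and the counting may have dropped or split some of their reads.

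Among HIF targets, Vegfa fell from the overlapping day 0 levels above to 53.7, 35.1, 44.3 and 24.2 CPM in collagen and 12.8, 23.5, 17.7 and 9.74 CPM in Matrigel on day 3. The change was -1.04 ± 0.28 in collagen (edgeR adjusted p = 0.0139) and -2.27 ± 0.30 in Matrigel (adjusted p = 1.36e-05). The clusters of few UMIs, which were mostly day 0 cells, had 257 CPM of Vegfa, and without them the change in collagen was -0.71 without a call (adjusted p = 0.115, or 0.0158 with the block), while that in Matrigel stayed at -2.27. The call in collagen also ended without mouse 2 or 3 (-0.97 and -0.92, adjusted p = 0.0866 and 0.101). Kdm3a, which removes methyl groups from histone H3, went from 23.9, 26.9, 33.8 and 30.7 to 11.7, 15.7, 14.3 and 9.54 CPM in Matrigel and from 21.8, 19.8, 24.8 and 20.0 to 15.7, 12.4, 16.05 and 13.9 CPM in collagen. Its ranges did not overlap, and its changes were -1.18 ± 0.18 (adjusted p = 4.11e-05) and -0.57 ± 0.17 (adjusted p = 0.0236). The latter ended without mouse 1, 2 or 3 (adjusted p = 0.101, 0.118 and 0.126) and without the clusters of few UMIs (-0.44, adjusted p = 0.0851).

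Further HIF targets fell in Matrigel. P4ha1 fell by 0.94 ± 0.22 in log2, from 19.0, 17.4, 20.0 and 27.0 to 12.8, 11.9, 8.75 and 10.5 CPM (edgeR adjusted p = 0.00223), without overlap and with a call after leaving out any mouse. In collagen P4ha1 did not pass, with 32.1, 24.1, 30.5 and 34.2 CPM on day 0. Egln3 (-1.40 ± 0.49), the ankyrin repeat gene Ankrd37 (-1.23 ± 0.46) and Ndrg1 (-0.97 ± 0.36), a stress-induced gene, also fell in Matrigel, each losing its call without at least 1 mouse (lowest change -0.64 for Ankrd37, -1.002 for Egln3 and -0.71 for Ndrg1, each without mouse 4). Against that direction Mif (0.62 ± 0.21) and Higd1a (0.73 ± 0.26), a mitochondrial inner membrane protein, rose. Mif missed the threshold without any 1 of the mice (adjusted p from 0.0536 to 0.0746), and Higd1a without mouse 1, 2 or 3 (adjusted p from 0.0808 to 0.129). In collagen the block added falls of Pdk1 (-0.89 ± 0.33), Bnip3 (-0.83 ± 0.29), Egln3 (-1.18 ± 0.41), the carbonic anhydrase Car9 (-1.12 ± 0.31), the oxidoreductase Ero1l (-0.39 ± 0.12) and the mTOR inhibitor Ddit4 (-0.67 ± 0.21), and a rise of Higd1a (0.68 ± 0.10). Those of Pdk1, Bnip3 and Egln3 did not pass without the cells of the 4T1 cluster (-0.51, -0.29 and -0.40). Without the clusters of few UMIs, Pdk1, Bnip3 and Ero1l did not pass (-0.57, -0.50 and -0.17). Bnip3l, Egln1 and Adm passed in none of the 9 comparisons with or without the block. Bnip3l, a mitophagy receptor related to Bnip3, ranged from 90.6 to 265 CPM over the sums, and Egln1 from 70.4 to 174 CPM. Adm had a fitted difference of 2.807 ± 1.498 on day 5, which rested on 4 and 1 UMIs in the Matrigel sums (edgeR adjusted p = 0.483).

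**Figure D2:**
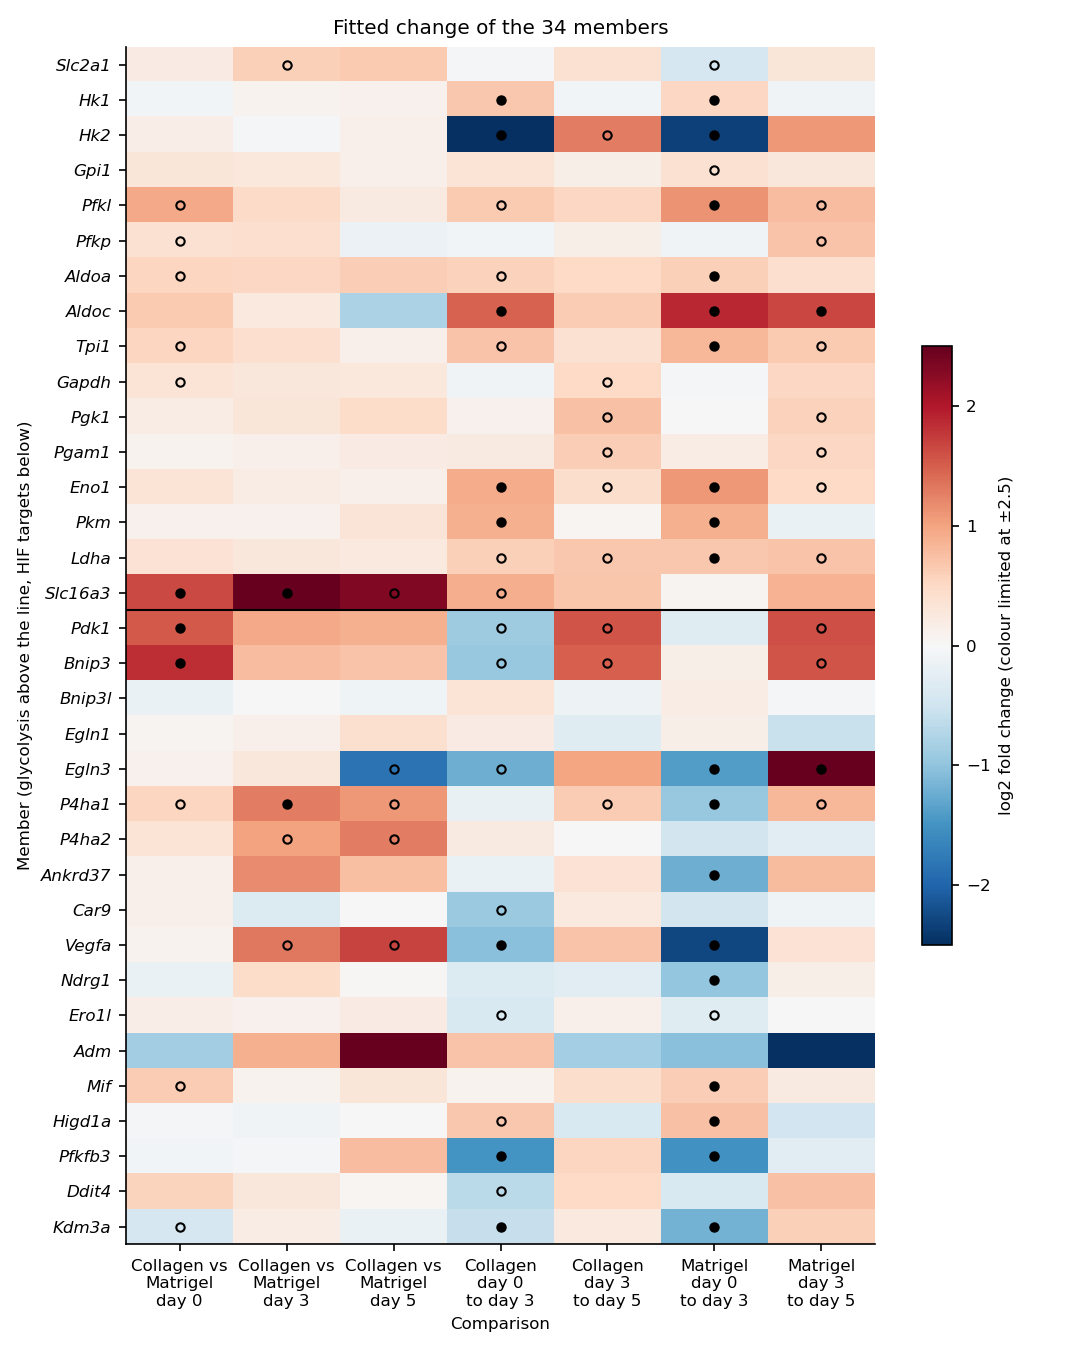
Fitted log2 change of the 34 members (rows) in 7 comparisons (columns), red for higher in collagen or on the later day. Filled circles mark calls without the block and open circles calls with the mouse as a block alone, and the row of Slc16a3 is the darkest red across the 3 matrix columns among the glycolytic genes.

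From day 3 to day 5 no member was called lower. The log2 change lay above 0 for 27 of 34 members in collagen and 25 of 34 in Matrigel, against 6704 and 6366 of 13184 genes. Without the block 0 of 34 were called in collagen, against 0.683% of all genes higher and 0.47% lower. At an unadjusted p under 0.05 there were 9 members in collagen, against 1606 of 13184 genes, and DESeq2 called 3, against 472 of all genes. In Matrigel without the block 2 rose and 0 fell, against 1.46% and 1.05%. These were Egln3, from 3.50, 5.78, 4.83 and 1.92 to 27.1 and 41.4 CPM (3.13 ± 0.56, edgeR adjusted p = 0.00579), and Aldoc, from the day 3 levels above to 36.6 and 64.6 CPM (1.67 ± 0.37, adjusted p = 0.0209). Day 5 lay above day 3 without overlap for both, and both calls ended without mouse 2 (3.67 and 1.92, adjusted p = 0.131 and 0.204) or mouse 3 (2.88 and 1.30, adjusted p = 0.106 and 0.281) and in a fit of the compared groups alone (0.103 and 0.214). With the block 9 members rose in collagen and 0 fell, against 4.64% and 5.9% of all genes, and 12 rose in Matrigel and 0 fell, against 5.86% and 6.86%. Pgk1, Pgam1, Eno1, Ldha, Pdk1, Bnip3 and P4ha1 were called in both matrices.

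Bnip3 went from 17.6, 8.31, 12.6 and 14.5 CPM on day 3 to 65.3, 16.1 and 31.2 CPM on day 5 in collagen and from 11.7, 4.85, 7.83 and 7.76 to 27.7 and 17.3 CPM in Matrigel. Pdk1 went from 7.12, 3.22, 4.27 and 4.14 to 24.9, 5.59 and 12.0 CPM in collagen and from 3.50, 2.24, 2.76 and 1.86 to 7.69 and 7.23 CPM in Matrigel. The groups overlapped in collagen, where mouse 1 was the highest, and not in Matrigel. With the block the changes of Bnip3 were 1.52 ± 0.30 and 2.18 ± 0.43, and those of Pdk1 1.49 ± 0.32 and 1.97 ± 0.51 (edgeR adjusted p from 0.00382 to 0.0188). Hk2 rose again in collagen (1.18 ± 0.33), to 17.1, 6.11 and 7.77 CPM, above all 4 day 3 values. Ldha rose by 0.67 ± 0.18 in collagen and 0.96 ± 0.21 in Matrigel, and Pgk1 by 0.78 ± 0.16 and 0.77 ± 0.19. Gapdh in collagen (0.44 ± 0.14, adjusted p = 0.0495) was at the threshold and missed it without the cells of the 4T1 cluster (adjusted p = 0.0571).

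The 4T1 cells on plastic showed how the same genes read in the same 3 pools outside the gels. There was 1 sum of 98, 196 and 19 cells per pool, so these changes have no error. From day 0 to day 3, 15 of the 16 glycolytic genes were lower in 4T1, 12 of them by more than 1 log2 unit, with a median of -1.20. Of 5829 genes with at least 20 CPM in a pool, 3356 were lower and 6.69% were lower by more than 1, and their median was -0.10. Tpi1 went from 499 to 147 and 511 CPM in 4T1 over the 3 days, Aldoa from 989 to 358 and 1003 CPM, and Pkm from 1562 to 767 and 1574 CPM. All 3 were lowest on day 3 in 4T1 and rose to day 3 in the tumour cells in Matrigel. From day 3 to day 5, 9 glycolytic genes of 4T1 were higher by more than 1 log2 unit (median 1.02), against 7.94% of the 5829 genes (median 0.10). The HIF targets had medians of -0.66 and 0.46, and Bnip3 went from 59.6 to 12.9 and 49.9 CPM and Ddit4 from 79.9 to 19.0 and 129 CPM. Hk2 and Egln3 were lower on day 3 in 4T1 (34.2 to 12.9 and 34.9 to 14.7 CPM) as in the tumour cells, and Higd1a stayed near its level (174 to 177 CPM). What set the 4T1 levels on a day was not tested, and the labels do not say how long these cells had grown.

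**Figure D3:**
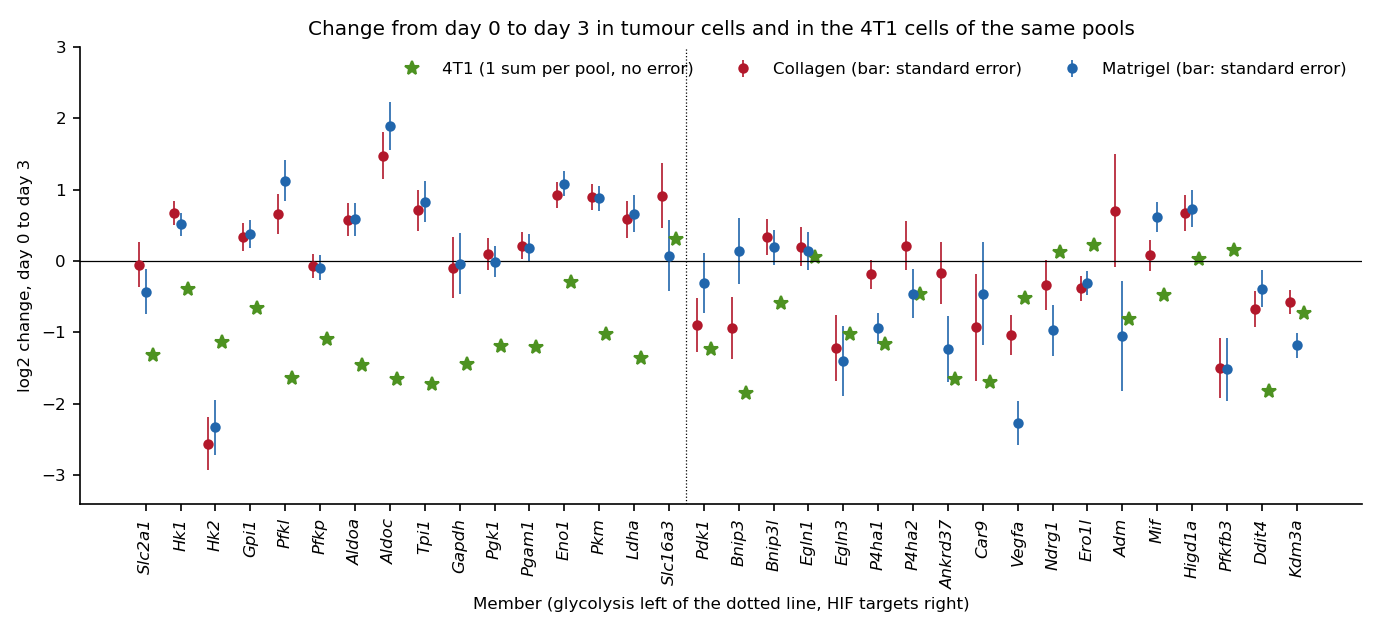
Log2 change of each member from day 0 to day 3 in tumour cells in collagen (red) and Matrigel (blue), with standard errors, and in the 4T1 cells of the same pools (green stars, without error). In 4T1, 15 of 16 glycolytic genes lie below 0, while Aldoc, Tpi1, Eno1 and Pkm of the tumour cells lie above 0 in both matrices.

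Summed over the 16 genes, glycolysis took 0.767% ± 0.138 (SD, n = 4) of all UMIs in collagen on day 0, 0.920% ± 0.146 (SD, n = 4) on day 3 and 1.31% ± 0.317 (SD, n = 3) on day 5. In Matrigel the shares were 0.612% ± 0.107 (SD, n = 4), 0.753% ± 0.162 (SD, n = 4) and 1.06% ± 0.0620 (SD, n = 2). Groups of neighbouring days and of the 2 matrices overlapped on days 0 and 3, while both Matrigel mice of day 5 (1.01% and 1.10%) lay above the highest of day 3 (0.939%). Within each of the 4 mice the glycolytic share was higher in collagen than in Matrigel on days 0 and 3, and higher on day 3 than on day 0 in both matrices. On day 5 it was higher in collagen in mouse 3 (1.39% against 1.10%) and lower in mouse 2 (0.963% against 1.01%). Without Gapdh, mouse 3 on day 3 had 0.623% in collagen against 0.633% in Matrigel, and the other pairs of days 0 and 3 kept their direction. The HIF targets took 0.186% ± 0.0234 (SD, n = 4), 0.175% ± 0.0225 (SD, n = 4) and 0.214% ± 0.0642 (SD, n = 3) in collagen and 0.151% ± 0.0263 (SD, n = 4), 0.157% ± 0.0128 (SD, n = 4) and 0.175% ± 0.0121 (SD, n = 2) in Matrigel, with overlap throughout. The HIF target share was also higher in collagen within each of the 4 mice on days 0 and 3. On day 5 it was higher in collagen in mouse 3 (0.183% against 0.166%) and lower in mouse 2 (0.170% against 0.183%). Without Mif it was lower in collagen in mouse 4 on day 0 (0.120% against 0.132%) and in mouse 2 on day 3 (0.0791% against 0.0906%). In 4T1 glycolysis took 1.07%, 0.480% and 1.06% of UMIs and the HIF targets 0.260%, 0.187% and 0.257%. A few genes set these sums: Gapdh held 28.1% and Pkm 20.2% of the glycolytic UMIs, and Mif 47.6% and Higd1a 14.3% of those of the HIF targets.

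**Figure D4:**
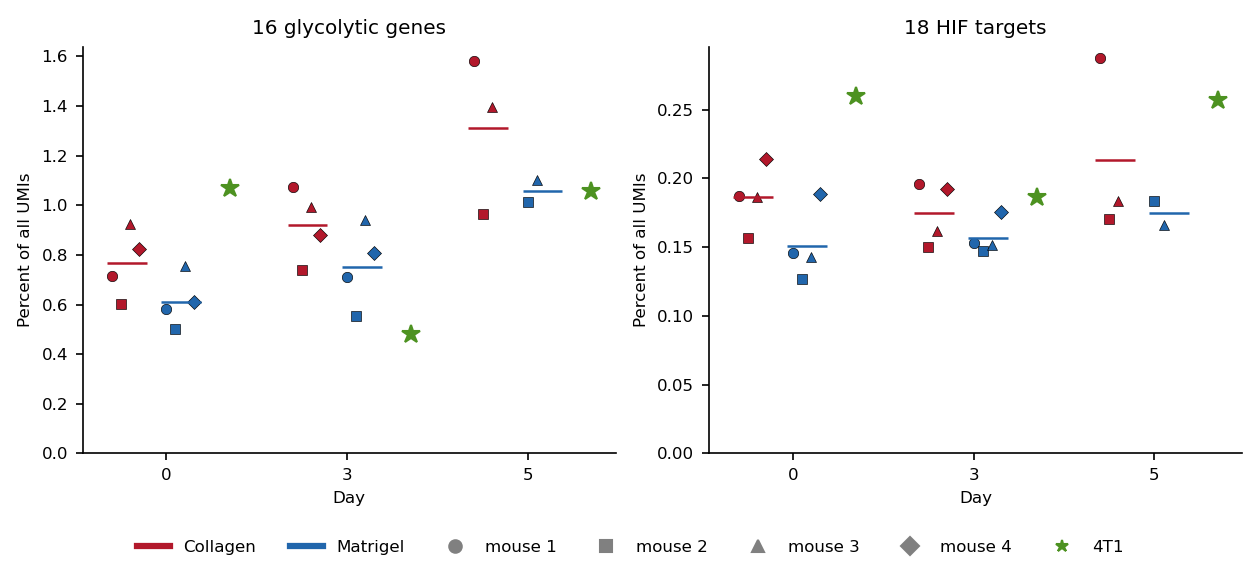
Share of all UMIs (percent) taken by the 16 glycolytic genes (left) and the 18 HIF targets (right) by day, with 1 point per mouse, the mean as a line, and 1 star per pool for 4T1. Glycolysis in collagen spans 0.604% to 0.926% on day 0 and 0.963% to 1.58% on day 5, and 4T1 is lowest on day 3.

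Members also differed between the tumours of the 4 mice. In the test of all mouse terms 23 of 34 members were called, 13 glycolytic and 10 HIF targets, against 56% of all genes. Gapdh stood at 4377 and 3637 CPM on day 0 in collagen and Matrigel in mouse 3 and at 1363 to 2105 CPM in the other mice. Averaged over the 4 groups of days 0 and 3 it was 1.26 ± 0.08 (SD over groups, n = 4) log2 units higher in mouse 3 than in the others (edgeR adjusted p = 2.72e-07). Tpi1 was 0.73 ± 0.22 (SD, n = 4) higher in mouse 3 (adjusted p = 0.000329). Both lie on chromosome 6, Tpi1 at 124810586 to 124814296 and Gapdh at 125161715 to 125166467 (GRCm38, minus strand). Of the 47 other tested genes within 2.5 Mb of Gapdh, 44 were higher in mouse 3, with a median of 0.76. Of all genes 50.5% were higher in mouse 3, with a median of 0.01.

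HIF targets of mouse 4 differed from those of the other mice in both directions, with 11 of 18 higher and 7 lower on average. The carbonic anhydrase Car9, which acidifies the surroundings of hypoxic cells, was at 19.0 CPM in collagen and 17.8 CPM in Matrigel on day 0 in mouse 4 and at 2.68 to 8.44 CPM in the other mice. It was 1.78 ± 0.36 (SD, n = 4) log2 units higher in mouse 4 (edgeR adjusted p = 1.43e-05). The peptide hormone adrenomedullin (Adm, 1.53 ± 0.64), P4ha2 (0.81 ± 0.50), the HIF prolyl hydroxylase Egln1 (0.77 ± 0.18) and Higd1a (0.76 ± 0.12) were also higher there in each of 4 groups (adjusted p = 0.00778, 0.000691, 6.67e-06 and 4.18e-06). Ero1l, an oxidase of the endoplasmic reticulum, was lower there in each of 4 groups (-0.39 ± 0.25, SD, n = 4, edgeR adjusted p = 0.0145). Vegfa (-0.55 ± 0.30) and Ndrg1 (-0.80 ± 0.54) were also below the other mice in each of 4 groups, and did not pass the test between mice (edgeR adjusted p = 0.124 and 0.0599). Slc2a1 was lower in mouse 4 (-0.90 ± 0.22) and higher in mouse 1 (0.58 ± 0.12) and mouse 3 (0.51 ± 0.19; adjusted p = 1.73e-06). Of the 56 tested neighbours of Higd1a within 2.5 Mb, 51 were higher in mouse 4 (median 0.58), of the 64 of Egln1, 53 (median 0.34), and of the 56 of Car9, 38 (median 0.14). Of the 26 neighbours of Adm, 15 were higher there (median 0.04), and of the 46 of P4ha2, 11 (median -0.20). Of all 13184 tested genes 48.3% were higher in mouse 4, with a median of -0.02. Mouse 4 had fewer UMIs per cell on day 0, with medians of 4330 in collagen and 8503 in Matrigel against 15715 to 24921 in the other mice, and its part in these levels was not tested. Mouse 2 was lowest in Bnip3 in each of the 4 groups (-0.84 ± 0.10, SD, n = 4; adjusted p = 0.00666).

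**Figure D5:**
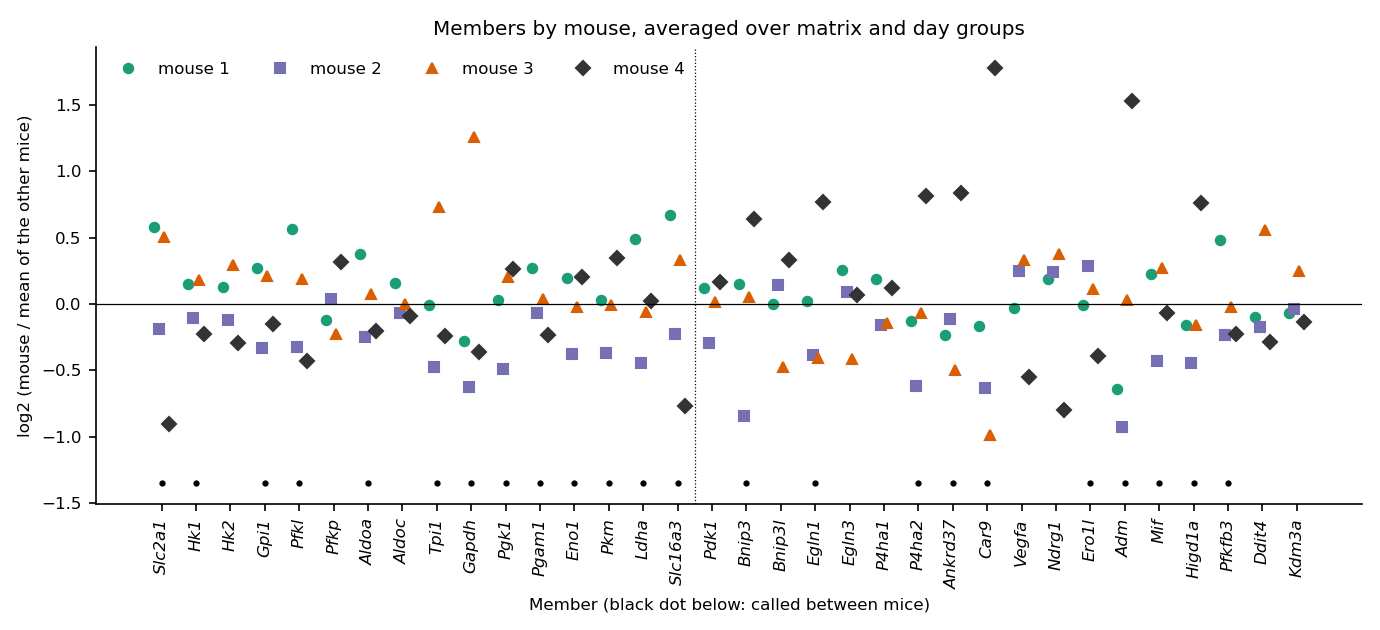
Log2 level of each member in a mouse relative to the mean of the other mice, averaged over the matrix and day groups, with 1 point per mouse. Black dots mark the 23 members called between mice, and the points for Gapdh in mouse 3 (1.26) and Car9 in mouse 4 (1.78) stand out.

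The other genes of these pathways were read from lists of 30 further glycolysis, glycogen and pyruvate genes, 14 HIF regulators and 26 further HIF targets, of which 25, 12 and 25 were tested. On day 0, Pfkm, the muscle-type phosphofructokinase, was higher in collagen (1.28 ± 0.28, edgeR adjusted p = 0.0114), as were the carbonic anhydrase Car12 (2.27 ± 0.68) and Zfp395 (0.86 ± 0.22). The transferrin receptor Tfrc (-0.77 ± 0.20) and Epas1, the HIF-2 alpha subunit (-0.99 ± 0.23, adjusted p = 0.0141), were lower. Of all genes, 4.15% were higher and 2.88% lower in that comparison. On days 3 and 5 none of these genes was called between matrices without the block, and with it 3 of 25 further HIF targets were higher on day 3 (Bhlhe40, Plod1 and Loxl2) and 0 lower, against 2.71% and 1.66% of all genes. From day 0 to day 3 in Matrigel, 9 of 25 further glycolysis genes rose and 2 fell, 2 of 12 regulators rose and 3 fell, and 3 of 25 further HIF targets rose and 9 fell, against 19.4% of all genes that rose and 19.7% that fell. Among the risers were both subunits of the mitochondrial pyruvate carrier, Mpc1 (1.06 ± 0.17) and Mpc2 (0.93 ± 0.16), and Pfkm (2.49 ± 0.27). Among the genes that fell were the HIF partner Arnt (-0.52 ± 0.14), the ubiquitin ligase Siah2 (-1.18 ± 0.16), Loxl2 (-3.16 ± 0.59) and Wsb1 (-1.38 ± 0.18). In collagen 3 further glycolysis genes rose and 0 fell, 2 regulators rose and 1 fell, and 1 further HIF target rose and 5 fell, against 9.33% and 10.2% of all genes. From day 3 to day 5, Arnt (0.84 ± 0.17) and Zfp395 (1.17 ± 0.26) rose in Matrigel, where 1.46% of all genes rose, and none was called in collagen. The matrix difference of Zfp395 fell by 1.63 ± 0.35 from day 0 to day 5 (edgeR adjusted p = 0.0299).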

How the data were processed

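Single cells of 3 MULTI-seq pools were read from the deposited tables: UMI counts per gene and cell, which the authors deposited without normalization, and a cell annotation naming each cell's mouse, matrix and day. The submitters' processing notes list Cell Ranger 3.0.2, Scanpy 1.4.4 and GRCm38/mm10, without roles. The annotation's day labels were matched to the pools, with its first day read as day 0. Gene IDs matched GENCODE vM21 for 20574 of 20605.

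Cells were clustered with Scanpy 1.11.5 and leidenalg 0.10.2 (24 clusters, Python 3.11.15, SciPy 1.17.1). Macrophage-like (227), fibroblast-like (81) and T or NK-like (29) cells were left out, and no doublet caller was run. Raw counts of at least 20 cells per mouse, matrix and day were summed (21 sums, 1831436 to 46657709 UMIs) and tested with edgeR 4.0.16 (R 4.3.3; quasi-likelihood, TMM, filterByExpr, 6 groups in 1 fit, common dispersion 0.0853). P-values were Benjamini-Hochberg adjusted over 13184 genes and called under 0.05. CPM are per TMM-scaled library. Fold changes are log2 with standard errors. 4T1 changes used log2(CPM + 5), and mouse values log2(CPM + 1).

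The mouse number pairs sums of 1 animal across groups, per the annotation. Deviations from group means correlated at a median of 0.347 (0.066 to 0.734) over 46 same-mouse pairs and -0.116 between mice, and the closest partner of each of the 21 sums came from the same animal, so results with the mouse as a block are given. No 2 sums were copies (chi-square per degree of freedom 7.58 to 67.1 over 28 pairs). Beyond the mouse, no label states separate cultures.

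On simulated counts for day 0 collagen against Matrigel (12552 genes), edgeR called 49% of 100 genes changed 2-fold and 97% of 100 changed 4-fold, with 0 unchanged genes called. With the block these were 91%, 100% and 9. Changed genes were drawn above a minimum mean CPM, with the same dispersion for all genes and mouse effects in the form the block fits. Detection of genes below that level was therefore not measured. The simulated dispersion, before mouse effects were added to part of the genes, lay below the common dispersion of the data without the block (0.0853). Detection rates in the data may therefore be lower. Alternatives were the block, DESeq2 1.42.0, RLE scaling, limma 3.58.1, other filters and leaving out mice or clusters. All 34 members were described, with values per mouse for part of the calls and fitted changes or counts alone for the others. Further pathway genes were described by counts, with values for part of those called. The members and lists were chosen with earlier results of these data known. Some results on further pathway genes are not reported here.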

Additional observations from a re-analysis of the deposited data

Results flagged for a closer look

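In 16 of 144 groups of 4 mice, 1 mouse lay farther from the rest than the 95% limit of Dixon's test, always as the highest. Chance flags about 1 in 20 independent, normally spread groups. The 144 groups share the same 4 mice, and values were tested without a log scale, so that rate is not exact for them. Mouse 3 was far above the others in Gapdh, with 4377 CPM in collagen on day 0, 3637 CPM in Matrigel on day 0 and 3566 CPM in Matrigel on day 3. Mouse 4 stood apart in Car9 on day 3 (15.4 CPM in collagen and 13.9 CPM in Matrigel), in Adm (24.6 CPM, Matrigel, day 0), Ankrd37 (24.2 CPM, collagen, day 0), Higd1a (500.4 CPM, Matrigel, day 3), Pfkp (69.4 CPM, collagen, day 3) and Pkm (1494 CPM, collagen, day 0). Mouse 1 did so on day 3 in collagen in Slc16a3 (153 CPM), Ldha (1398 CPM) and P4ha1 (33.8 CPM), and in Hk1 in Matrigel on day 0 (35.6 CPM). Mouse 2 did so in Matrigel on day 3 in Ankrd37 (6.34 CPM) and Bnip3l (265 CPM).

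The difference between collagen and Matrigel changed from day 0 to day 5 for 4 of 34 members in edgeR with the mouse as a block, against 13.7% of all genes. Without the block 0 members were called, and the calls of Vegfa, Bnip3 and Egln3 ended in other settings, as given above. The log2 change of the difference was 1.54 for Vegfa, -0.97 for Pfkl, -1.63 for Bnip3 and -2.34 for Egln3.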

How the results depend on the processing

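Of 33 member and comparison pairs called without the block, 33 were called with the mouse as a block, and 54 others were added. DESeq2 called all 33 and RLE scaling 31, limma 26, a fit of the compared groups alone 25, and fits without mouse 1, 2, 3 or 4 called 21, 12, 17 and 24. None changed sign. With the mouse as a block, members called moved from 3 to 11 on day 0, 2 to 5 on day 3, 0 to 5 on day 5, 8 to 20 and 0 to 9 for the 2 steps in collagen, 2 to 12 from day 3 to 5 in Matrigel, and 0 to 4 for the change of the matrix difference from day 0 to day 5. Over all genes tested the calls moved from 927 to 3207, 27 to 576, 60 to 828, 2581 to 4975, 152 to 1390, 330 to 1676 and 157 to 1809.

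In the same order of 7 comparisons, chosen after seeing the data, the block gave 8, 5, 6, 19, 9, 12 and 2 members without the cells of the 4T1 cluster, 10, 5, 4, 17, 8, 11 and 3 without clusters of few UMIs, and 10, 5, 5, 18, 8, 20 and 4 with sums of at least 10 cells. Over all genes the counts were 3212, 643, 883, 5244, 1445, 1732 and 1820 in the first of these settings. They were 3244, 555, 791, 4757, 1326, 1596 and 1757 in the second and 3196, 559, 1146, 4833, 1322, 2057 and 2030 in the third. For the change from day 0 to day 3 the first pair of settings gave 1 and 2 in place of 0, and 671 and 763 of all genes in place of 704. Without the block, DESeq2 gave 3 on day 5, 3 from day 3 to 5 in collagen and 1 for the change to day 5 (261, 472 and 552 of all genes). The compared groups alone gave 0 on day 3 and 0 from day 3 to 5 in Matrigel (0 and 2 of all genes). On day 3, adding stromal and immune clusters, sums of at least 10 cells and limma each gave 1 (29, 31 and 10 of all genes). Sums of at least 10 cells gave 2 on day 5 and 5 from day 3 to 5 in Matrigel (191 and 551 of all genes). Leaving out clusters of few UMIs gave 1 from day 3 to 5 in collagen (156 of all genes).

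Leaving out 1 mouse gave 0 to 1 members on day 0, 0 to 1 on day 3, 0 to 2 on day 5, 3 to 10 from day 0 to 3 in collagen (3 without mouse 2), 9 to 12 in Matrigel, 0 to 3 from day 3 to 5 in Matrigel (0 without mouse 2 or 3) and 14 to 22 between mice (14 without mouse 2). Over all genes these counts were 81 to 799, 1 to 58, 0 to 276, 992 to 3016, 3288 to 4965, 14 to 610 and 4050 to 6412. The HIF target sum differed between matrices on day 0 by 0.078 in log2 without Mif. Its change from day 0 to 3 was -0.29 in collagen as a mean of per-cell shares and -0.23 in Matrigel without Mif, and from day 3 to 5 in Matrigel 0.025 without Mif and 0.38 with sums of at least 10 cells. Of 154 alternative values of the list sums, 149 moved by less than 1 SD between mice, pooled over the groups compared. That SD was about as large as several of the differences. For glycolysis in collagen from day 0 to 3 it was 0.251, and the change was 0.266, or 0.467 without Gapdh. Day 5 rests on 3 and 2 mice, and low members such as Adm, Pfkfb3 and Pdk1 on few UMIs in small sums.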
